A study of Mus musculus with 4 samples.

Results

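Collagens are the main structural proteins of the extracellular matrix, and the genes described here encode their chains. They were taken as the protein-coding genes of the deposited table whose symbol has the form of a collagen chain (Col, a type number, the letter a and a chain number) and whose mean over the 4 libraries was at least 10 normalized counts. Of 44 such genes, 40 met this mean, out of 18436 genes of any kind that did so and 48709 genes in the table. The libraries were made from the left lung lobe of C57BL/6 mice at postnatal day 1, from 2 untreated mice homozygous for the SL allele of Ryk (RykSL/SL, called mutant) and 2 untreated wild-type mice. Each library is 1 mouse. Ryk encodes a WNT receptor with a kinase-like domain. The labels do not state what the SL allele does, the sex or the litter, and they name no promoter or Cre, so the comparison is of whole lung tissue between genotypes.

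A collagen molecule is a rope of chains wound round each other, and each chain repeats glycine followed by a pair of other residues. Fibrillar collagens form the tension-bearing cables of the lung, basement membrane collagens form the sheets under epithelium and around capillaries, and FACITs (fibril-associated collagens with interrupted helices) sit on the surface of fibrils. Beaded filament collagens form fine microfibrils near cells, and transmembrane collagens are anchored in the cell membrane. In the newborn lung these matrices are laid down while the walls of the future alveoli form. Chains are modified in the endoplasmic reticulum, exported, trimmed of their propeptides and crosslinked outside the cell.

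The repeat is visible in the exons of these genes, which the selection did not use. Of the coding parts of exons in the 40 genes, 22.4% were exactly 54 bases long, against 0.429% in the other protein-coding genes tested. The share was 47.2% in the fibrillar genes and 4.05% in the basement membrane genes. Of 416 such exons in collagen chain genes, 400 carried GG, the start of a glycine codon, at every 9th base from the first, against 0 of 548 whole coding exons of 54 bases in the other genes. An exon of this kind is shown for members to which the results below return (GENCODE M21, GRCm38, 5′ to 3′ on the gene's strand, all within the coding sequence), with the GG of each of the 6 glycine codons in capitals.
Col1a1, exon 8, chr11:94939904-94939957, plus strand: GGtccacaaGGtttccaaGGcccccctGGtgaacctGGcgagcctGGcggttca
Col3a1, exon 6, chr1:45325360-45325413, plus strand: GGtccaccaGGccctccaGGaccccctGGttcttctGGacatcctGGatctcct
Col27a1, exon 4, chr4:63231792-63231845, plus strand: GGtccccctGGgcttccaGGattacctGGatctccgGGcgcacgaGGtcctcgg
Col4a1, exon 7, chr8:11245211-11245264, minus strand: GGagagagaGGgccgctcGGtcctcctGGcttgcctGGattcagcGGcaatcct
Col16a1, exon 34, chr4:130067219-130067272, plus strand: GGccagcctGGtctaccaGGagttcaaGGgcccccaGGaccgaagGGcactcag
Col6a3, exon 16, chr1:90795915-90795968, minus strand: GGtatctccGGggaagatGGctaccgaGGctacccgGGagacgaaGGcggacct
The GG positions are shared across these exons because the exons were chosen for them, while the bases between them differed from gene to gene. No member shared more than 4.87% of its 50-base transcript sequences with other genes, a measure of how many reads could fit more than 1 gene.

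The libraries summed to between 18658239 and 19987634 normalized counts, and collagen chains made up 0.712% and 0.558% of the mutant totals and 0.728% and 0.727% of the wild-type totals. Ryk had 2757 and 2203 normalized counts in the mutant lungs, with 2528 and 2525 in wild type, so the gene total does not separate the genotypes. Mutant lung 1 had 24836 normalized counts of Xist, the RNA of the inactive X chromosome, and 56 of the Y-linked gene Ddx3y, where mutant lung 2 had 9 and 3769. The wild-type lungs had 7 and 23 of Xist and 2328 and 2197 of Ddx3y. Mutant lung 1 thus stood apart from the other 3 mice in these sex-linked genes, and sex and mouse cannot be told apart in any difference between the mutant lungs. Lung epithelial markers were abundant in all 4 libraries, led by the surfactant gene Sftpc at 179120 and 135559 in the mutant lungs, with 220945 and 200581 in wild type and by the club cell gene Scgb1a1 at 35648 or more in every lung. In bulk tissue, fewer cells of a type and less RNA per cell cannot be told apart, which holds for every difference below.

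The comparison of mutant with wild-type lungs asks which collagen chains differ between the genotypes. No collagen chain gene passed the test: limma on log2(value + 1), with Benjamini-Hochberg adjustment over all 18436 genes, called 0 of 40 at an adjusted p under 0.05, where it called 2.39% of all genes tested, 1.47% higher and 0.917% lower in the mutant. At an unadjusted p under 0.05 stood 12 of the 40 members, or 30% (10 lower and 2 higher in the mutant), against 20.1% of all genes. In 13 members both mutant lungs lay below both wild-type lungs, a share of 32.5% against 26.9% of all genes. In 6 members both mutant lungs lay above both wild-type lungs, a share of 15% against 25.7%. In either direction 19 of the 40 were apart, and 52.6% of all genes were. The median log2 difference of the members was -0.17, against -0.02 over all genes. With 2 mice per genotype the intervals were wide, and a missed threshold does not show that levels were alike.

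The count of calls depended on which mutant lung was used. Mutant lung 2 set alone against the wild type, with its spread assumed to equal that of the wild-type lungs, gave 10 calls among the 40 members, 8 lower and 2 higher, where 12.9% of all genes were called, 6.43% lower and 6.50% higher. The members lower in that lung were Col1a1, Col1a2, Col6a3, Col12a1, Col13a1, Col15a1, Col17a1 and Col18a1, and the higher ones were Col7a1 and Col11a2. Without mutant lung 2, no member and no other gene was called, with 5249 genes at an unadjusted p under 0.05.

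Levels differed among the chains over a wide range. Per kilobase of exon, the scale on which genes can be compared, Col4a1 was highest with a mean of 2966 normalized counts, followed by Col6a1 (2906), Col3a1 (2102), Col4a2 (1601), Col6a2 (1078) and Col1a1 (1042). The lowest members were Col22a1 (2.80), Col9a3 (3.63) and Col11a1 (5.16). Classes did not order the levels: the beaded filament chains Col6a4, Col6a5 and Col6a6 and the fibrillar chains Col5a3 and Col24a1 stood between 5.71 and 11.5 per kilobase, near the bottom. The 4 chain genes under the mean of 10 were Col2a1, Col9a1, Col10a1 and Col19a1, the first 3 of them cartilage chains. Col2a1, the main cartilage collagen, had 4 and 7 normalized counts in the mutant lungs, with 5 and 2 in wild type, which rests on a few reads. Just inside the mean of 10 stood Col9a3, with 13 and 16 in the mutant lungs against 11 and 16, and just outside it Col9a1, with 14 and 2 in the mutant lungs against 8 and 9.

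**Figure D1:**
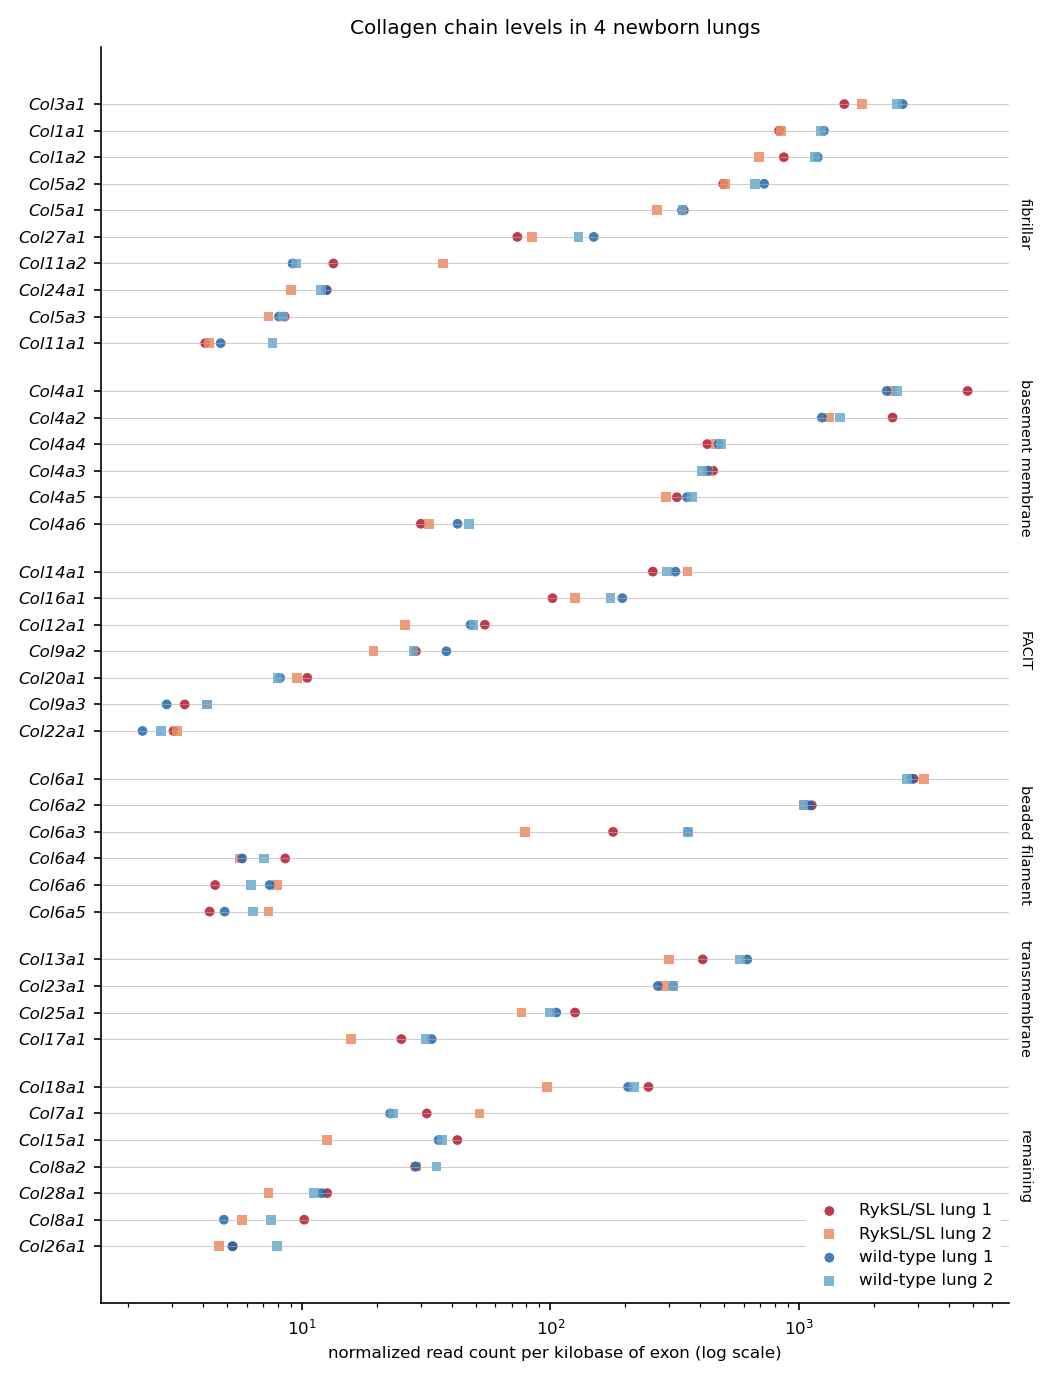
Normalized read count per kilobase of exon (log axis) of the 40 collagen chain genes in each of the 4 lungs, grouped by class and ordered by level; each point is 1 lung. For Col3a1, Col1a1, Col1a2, Col5a2 and Col27a1 the mutant points lie left of the wild-type points, and for Col4a1 and Col4a2 only mutant lung 1 lies to the right.

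Summed over its 10 members, the fibrillar class had 40129 and 40425 normalized counts in the mutant lungs, with 60771 and 57986 in wild type, a mean of 67.8% of wild type. Both mutant sums lay below both wild-type sums, by far more than the difference within either genotype. With 2 against 2 the smallest two-sided exact permutation p is 0.333, so the sums are given as a description. The basement membrane class had 62803 and 37820 in the mutant lungs, with 37026 and 40257 in wild type, with only mutant lung 1 standing apart. Beaded filament chains summed to 24346 and 23720 in the mutant lungs against 26031 and 25056, FACITs to 3512 and 3898 against 4464 and 4160, and transmembrane chains to 5453 and 4092 against 5970 and 5916. In these last 3 classes the mutant sums also lay below the wild-type sums, by smaller margins. The 7 chains outside the 5 classes summed to 2649 and 1539 in the mutant lungs, with 2169 and 2327 in wild type, which overlapped.

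**Figure D2:**
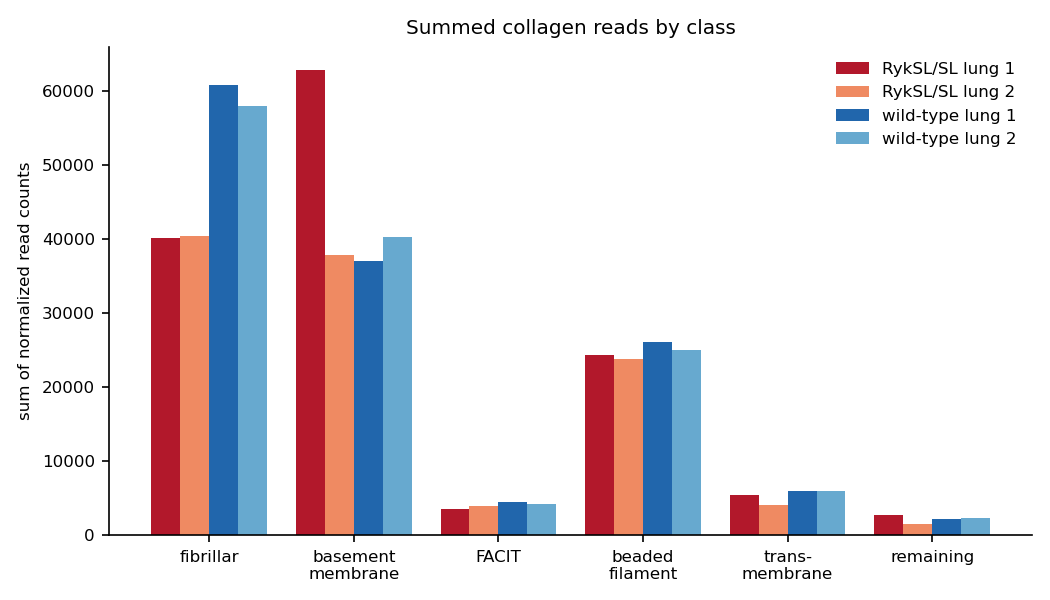
Sum of normalized read counts over the members of each collagen class, 1 bar per lung, mutant lungs left of wild-type lungs. The fibrillar bars reach 40129 and 40425 in the mutant lungs, with 60771 and 57986 in wild type, and the basement membrane bar of mutant lung 1 reaches 62803.

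Col1a1, Col1a2, Col3a1 and Col5a2, the 4 most abundant fibrillar chains, lay below wild type in both mutant lungs. Col1a1 (ENSMUSG00000001506, chromosome 11, positions 94936224 to 94953042, GRCm38), the major chain of type I collagen, had 5459 and 5559 normalized counts in the mutant lungs, with 8273 and 8058 in wild type. The mutant lungs held 66.9% and 68.1% of the wild-type mean, a log2 difference of -0.57 (standard error 0.14, 95% interval -0.92 to -0.22, limma, adjusted p = 0.112). Its partner Col1a2 (chromosome 6) had 10801 and 8580 in the mutant lungs, with 14797 and 14410 in wild type, a log2 difference of -0.60 (interval -1.05 to -0.15, adjusted p = 0.158). The groups did not overlap for either chain.

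Col3a1 (ENSMUSG00000026043, chromosome 1), the chain of type III collagen found in distensible tissues, had 14936 and 17656 normalized counts in the mutant lungs, with 25667 and 24259 in wild type, a log2 difference of -0.62 (interval -1.08 to -0.16, adjusted p = 0.157). Col5a2, a type V chain that helps start fibrils, lies 24614 bases from Col3a1, tail to tail, and had 4755 and 4831 in the mutant lungs against 6946 and 6373, a log2 difference of -0.47 (adjusted p = 0.158). Both genes were lower in both mutant lungs. Col5a1, the other main type V chain, had 2922 and 2275 in the mutant lungs, with 2870 and 2888 in wild type, and the groups overlapped (adjusted p = 0.641).

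Col27a1 (ENSMUSG00000045672, chromosome 4), a fibrillar collagen best known from cartilage, came closest to the threshold of all members. Its level was 958 and 1097 normalized counts in the mutant lungs, with 1945 and 1688 in wild type, or 56.6% of wild type. The log2 difference was -0.82 with a standard error of 0.15 (interval -1.19 to -0.45, adjusted p = 0.0588), and it passed after scaling to equal library totals (-0.90, adjusted p = 0.0455) and after quantile normalization (-0.92, adjusted p = 0.0446). It did not pass under any other alternative run, among them no trend (adjusted p = 0.126) and no filter (0.240), where no gene of any kind passed. Without mutant lung 2 the log2 difference was -0.92, and without wild-type lung 1 or 2 it was -0.72 or -0.92. Those fits leave 1 mouse in a genotype and gave no call for any gene.

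Col11a2, a type XI chain of cartilage fibrils, went the other way, with 92 and 254 normalized counts in the mutant lungs, with 63 and 65 in wild type. Most of its log2 difference of 1.24 (interval 0.11 to 2.38, adjusted p = 0.218) came from mutant lung 2. Its partner Col11a1 had 52 and 54 in the mutant lungs, with 60 and 97 in wild type (-0.52, adjusted p = 0.390). The minor chains Col24a1 and Col5a3 had between 50 and 96 normalized counts in every lung, and their groups overlapped. The fibrillar median was -0.50, and -0.46 and -0.48 in mutant lungs 1 and 2 taken singly, against -0.02 over all genes tested.

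**Figure D3:**
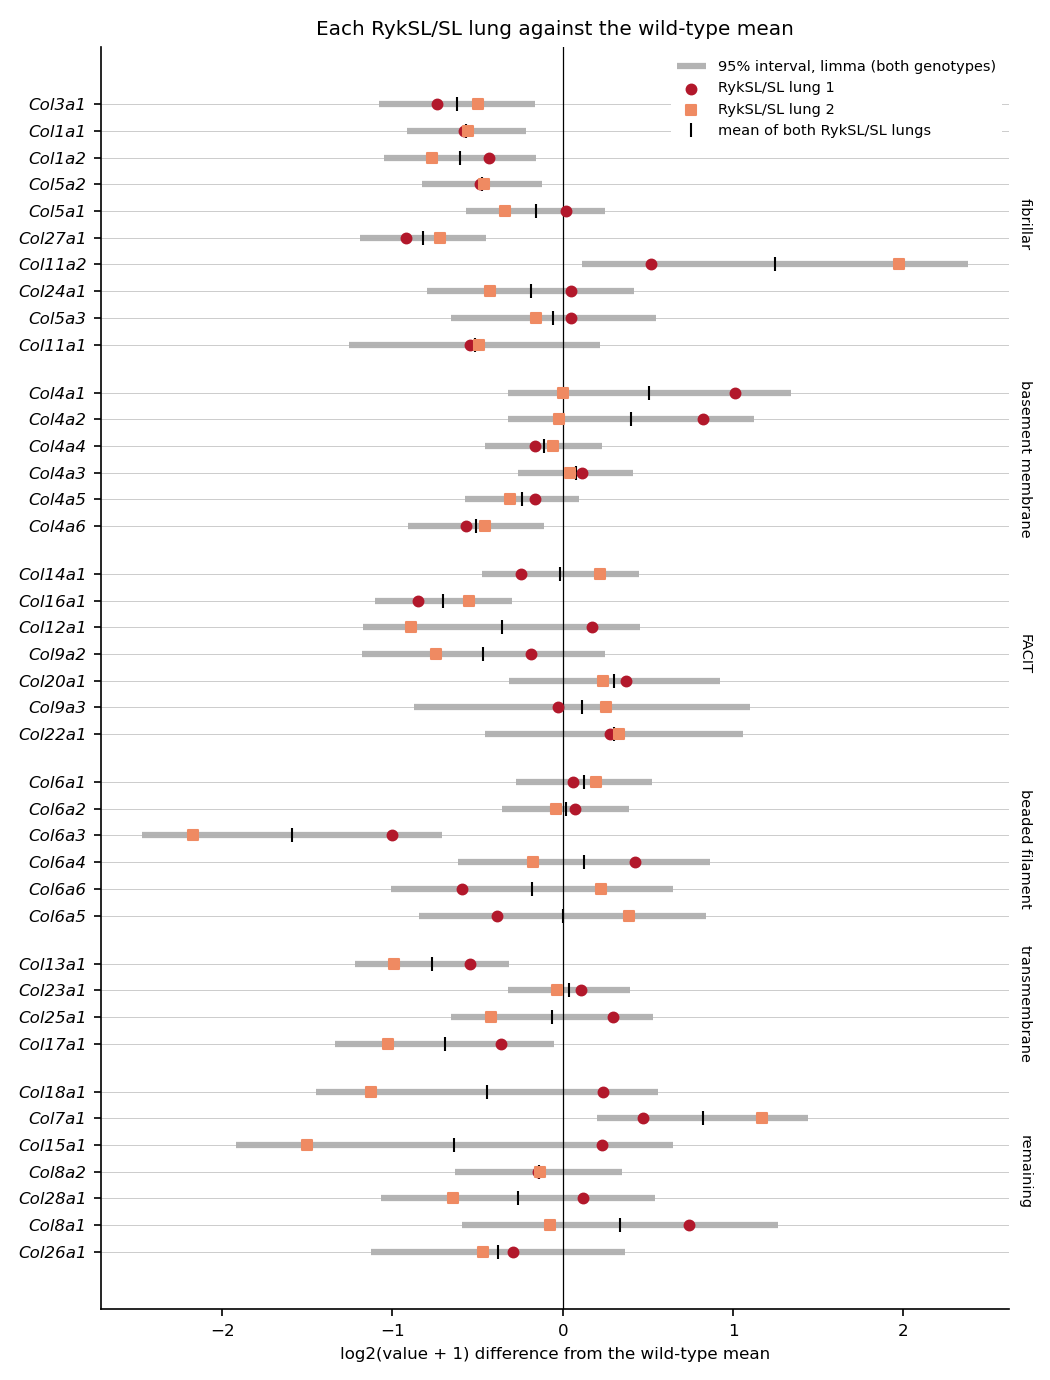
Difference of each mutant lung from the wild-type mean on the log2(value + 1) scale for the 40 collagen chain genes, with the mean of both mutant lungs (tick) and limma's 95% interval (grey). Both mutant lungs lie left of 0 for Col3a1, Col1a1, Col1a2, Col5a2, Col27a1, Col16a1, Col13a1 and Col6a3, whereas Col15a1, Col18a1 and Col12a1 lie on opposite sides of 0 in the mutant lungs.

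The most abundant basement membrane chains, Col4a1 and Col4a2, were set apart in a single mouse. Col4a1 (ENSMUSG00000031502, chromosome 8), which pairs with Col4a2 in nearly every basement membrane, had 35602 and 17660 normalized counts in the mutant lungs, with 16808 and 18497 in wild type. Col4a2, which starts head to head with Col4a1 so that the annotated ends of the genes overlap, had 15757 and 8764 in the mutant lungs, with 8183 and 9696 in wild type. Mutant lung 1 thus held 202% and 176% of the wild-type mean of these chains, while mutant lung 2 held 100.04% and 98.0%. Neither passed, with log2 differences of 0.51 (interval -0.32 to 1.34, adjusted p = 0.454) and 0.40 (adjusted p = 0.498), and without mutant lung 1 they were 0.00 and -0.02. The endothelial marker list, whose cells make much of this collagen, summed to 41680 and 25688 in the mutant lungs, with 34722 and 38376 in wild type. Its members differed: the most abundant, Pecam1 and Cdh5, were highest in mutant lung 1, at 9682 and 7805. In 5 of the 11 (Kdr, Emcn, Car4, Aplnr and Cldn5) both mutant lungs lay below both wild-type lungs, and in 0 above. Of all genes tested, 26.9% lay below and 25.7% above in this way. The list's median log2 difference from wild type was 0.03 in mutant lung 1 and -0.54 in mutant lung 2. The part of these cells, and of sex, in the Col4a1 and Col4a2 levels was not tested.

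The chains found in the alveolar basement membrane, Col4a3 and Col4a4, had intervals that included 0. Col4a3 had 4501 and 4286 normalized counts in the mutant lungs, with 4285 and 4059 in wild type (log2 difference 0.07, interval -0.26 to 0.41, adjusted p = 0.804). Col4a4, whose start lies 71 bases from that of Col4a3, had 4536 and 4893 in the mutant lungs against 5036 and 5144 (-0.11, adjusted p = 0.703). The sign for Col4a3 turned to -0.0041 with equal library totals and -0.0346 with quantile normalization. Of the X-linked chains, Col4a5 had 2167 and 1958 in the mutant lungs, with 2377 and 2485 in wild type (-0.24, adjusted p = 0.386). Col4a6, found with Col4a5 around smooth muscle, had 240 and 259 in the mutant lungs, with 337 and 376 in wild type (-0.51, interval -0.91 to -0.11, adjusted p = 0.171). Both mutant lungs lay below both wild-type lungs for the X-linked chains, and only 1 of these mutant lungs had high Xist. The part of sex in these levels was not tested.

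Among the FACITs, Col16a1 (chromosome 4) had 688 and 850 normalized counts in the mutant lungs, with 1314 and 1177 in wild type, a log2 difference of -0.70 with a standard error of 0.16 (interval -1.10 to -0.30, adjusted p = 0.0974). The mutant lungs held 55.2% and 68.2% of the wild-type mean. Col12a1, which coats type I fibrils, had 829 and 397 in the mutant lungs, with 726 and 746 in wild type (adjusted p = 0.594), with mutant lung 2 alone below the others. Col14a1, the most abundant FACIT here, had 1811 and 2497 in the mutant lungs, with 2232 and 2068 in wild type (adjusted p = 0.975). The remaining FACITs, Col9a2, Col9a3, Col20a1 and Col22a1, stood between 11 and 118 in every lung with adjusted p of 0.423 or more. Of these, Col20a1 (54 and 49 in the mutants, 42 and 41 in wild type) and Col22a1 lay higher in both mutant lungs, and the type IX chains overlapped.

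The beaded filament class held the member with the largest absolute difference. Col6a3 (ENSMUSG00000048126, chromosome 1), the large chain that completes type VI collagen, had 2137 and 948 normalized counts in the mutant lungs, with 4276 and 4285 in wild type. Mutant lungs 1 and 2 held 49.9% and 22.1% of the wild-type mean, and the wild-type lungs differed by 9 normalized counts. The log2 difference was -1.59 (standard error 0.36, interval -2.47 to -0.71, limma, adjusted p = 0.0909), and it passed with the replicate number as a block (adjusted p = 0.0123) and without mutant lung 1 (0.0407). Under the other alternatives its adjusted p was 0.0735 or more, and without either wild-type lung no gene of any kind passed. Its partners had intervals that included 0. Col6a1 had 12675 and 13900 in the mutant lungs against 12419 and 11912, both mutant lungs above both wild-type lungs (0.13, interval -0.27 to 0.52), and Col6a2 had 9380 and 8682 against 9173 and 8682 (0.02, interval -0.36 to 0.39). Col6a4, Col6a5 and Col6a6, chains that can take the place of Col6a3, stood between 40 and 73 in every lung, and each overlapped between the genotypes. The direction for Col6a2 and Col6a5 turned with equal library totals, and for Col6a2 also with quantile normalization.

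Of the transmembrane chains, Col13a1 (chromosome 10), an adhesion protein of many cell types, had 1888 and 1384 normalized counts in the mutant lungs, with 2852 and 2657 in wild type, a log2 difference of -0.77 (interval -1.22 to -0.32, adjusted p = 0.102). Col17a1, a component of the hemidesmosomes that fix epithelial cells to the basement membrane, had 151 and 95 in the mutant lungs, with 200 and 189 in wild type (-0.69, adjusted p = 0.223). Both mutant lungs lay below both wild-type lungs for these chains, lung 2 further than lung 1. Col23a1 and Col25a1 overlapped between the genotypes, with 991 to 1788 normalized counts in every lung and adjusted p of 0.912 or more, and the direction for Col23a1 turned under both other scalings.

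Outside the 5 classes, Col7a1, which forms the anchoring fibrils under stratified epithelium, had 327 and 533 normalized counts in the mutant lungs, with 233 and 239 in wild type. Both mutant lungs were above the wild type, with a log2 difference of 0.82 (interval 0.20 to 1.44, adjusted p = 0.161). The multiplexins Col18a1 and Col15a1, proteoglycan collagens of vessel basement membranes, separated the mutant lungs from each other instead. Col18a1, the source of endostatin, had 1741 and 678 in the mutant lungs, with 1442 and 1521 in wild type. Col15a1 had 268 and 80 in the mutant lungs, with 225 and 232 in wild type. Mutant lung 2 held 45.8% and 35.0% of the wild-type mean of Col18a1 and Col15a1, and mutant lung 1 held 118% and 117%. The network-forming chains Col8a1 and Col8a2 and the little studied Col26a1 and Col28a1 stood between 36 and 156 in every lung and overlapped.

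The lungs of the mutant genotype differed more from each other than those of the wild type. In 16 of the 40 members the mutant lungs were at least 0.5 apart on the log2 scale, against 4 members for the wild-type lungs. The shares were 40% and 10%, beside 30.5% and 8.10% of all genes tested. A gap of 1 or more was found between the mutant lungs in Col4a1, Col6a3, Col11a2, Col12a1, Col15a1 and Col18a1, and between the wild-type lungs in no member. Mutant lung 1 was the higher in each of these but Col11a2. Myofibroblast and smooth muscle markers summed to 22823 and 14860 in the mutant lungs, with 22219 and 20505 in wild type, with 0 of 10 called. Their sum was lowest in mutant lung 2, as were Tgfbi, the most abundant, and Acta2, smooth muscle actin (2705 and 723 in the mutants, 2454 and 1870 in wild type), whereas Hhip, the next most abundant, was highest there. The sum of the 11 endothelial markers, with 0 called, was also lowest in mutant lung 2. Mesothelial markers ran the other way, with sums of 13033 and 24555 in the mutant lungs, with 18685 and 16519 in wild type, led by Msln and Krt19 and with 0 of 9 called. The part of these cell types in the split between mutant lungs was not tested.

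Fibroblasts are the main source of fibrillar collagen in the lung, and their markers went both ways. Of 11 fibroblast markers, 2 were called higher (Inmt and Pdgfra) and 3 lower (Plin2, Lum and Meox2) at an adjusted p under 0.05 (limma). Of all genes tested, 1.47% were called higher and 0.917% lower. The fibroblast list's median log2 difference was -0.47. Both mutant lungs lay below both wild-type lungs in 6 markers and above in 2, beside 26.9% and 25.7% of all genes tested. The list summed to 36222 and 33881 in the mutant lungs, with 30218 and 31511 in wild type, with Npnt and Inmt the most abundant. Of these sums, Inmt alone held 9450 and 10338 in the mutant lungs, against 2811 and 3549. The pericyte list had 0 of 10 called and sums of 15052 and 12025 against 11718 and 12468, led by Gucy1a3 and Pdgfrb. Heart muscle markers, led by Myh6 and Actc1, had 2 of 9 called, both lower (Myl7 and Myl4), and a median log2 difference of -0.95. In all 9 both mutant lungs lay below both wild-type lungs, against 26.9% of all genes tested. This list summed to 3780 and 3738 in the mutant lungs against 7367 and 7320. Of 13 cartilage markers in the table, 5 reached the mean of 10, and of these only Matn4 was called, lower in the mutant (825 and 713 against 1427 and 1623). Acan, Comp, Matn1 and Matn3, which define cartilage, were under that mean, Epyc and 3110079O15Rik were at 0 in every library, and the cartilage sums were 2088 and 1465 in the mutant lungs against 2233 and 2630. Schwann cell, skeletal muscle and bone lists had 4, 5 and 2 members measured, led by Erbb3, Ckm and Runx2, and none called. The marker calls (Inmt, Pdgfra, Plin2, Lum, Meox2, Myl7, Myl4 and Matn4) were all lost with no trend and with no filter on low values. With no filter no gene of any kind was called. They were also lost without mutant lung 2 or either wild-type lung, fits with 1 mouse in a genotype that gave no call for any gene. Such losses are not particular to these markers. The call of Lum was also lost without mutant lung 1, and that of Pdgfra under both other scalings. The part of fibroblast, heart or cartilage cells in the collagen levels was not tested.

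Chains that wind into the same molecule were compared within each lung for 10 pairs. Col1a1 stood at 0.505 and 0.648 of Col1a2 in the mutant lungs and at 0.559 in both wild-type lungs. Col4a1 stood at 2.26 and 2.02 times Col4a2 in the mutant lungs and at 2.05 and 1.91 times in the wild-type lungs. The ratio of Col4a1 to Col4a2 was thus highest, at 2.26, in the mouse with the most of both chains, and the groups overlapped. The ratio of Col6a3 to Col6a1 was 0.169 and 0.0682 in the mutant lungs against 0.344 and 0.360, a mean log2 ratio of -3.22 ± 0.92 in the mutant and -1.51 ± 0.04 in the wild type (SD, n = 2 each). The ratio of Col11a1 to Col11a2 was 0.565 and 0.213 in the mutant lungs against 0.952 and 1.49. The genotypes did not overlap in 5 of the 10 pairs, near the share of single genes tested that did not overlap, 52.6%. The 5 were these last 2 pairs together with Col4a3 to Col4a4, Col4a5 to Col4a6 and Col5a1 to Col5a2. Each stood at the smallest exact permutation p that 2 against 2 allows, 0.333. A factor common to all genes of a library cancels in such a ratio.

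**Figure D4:**
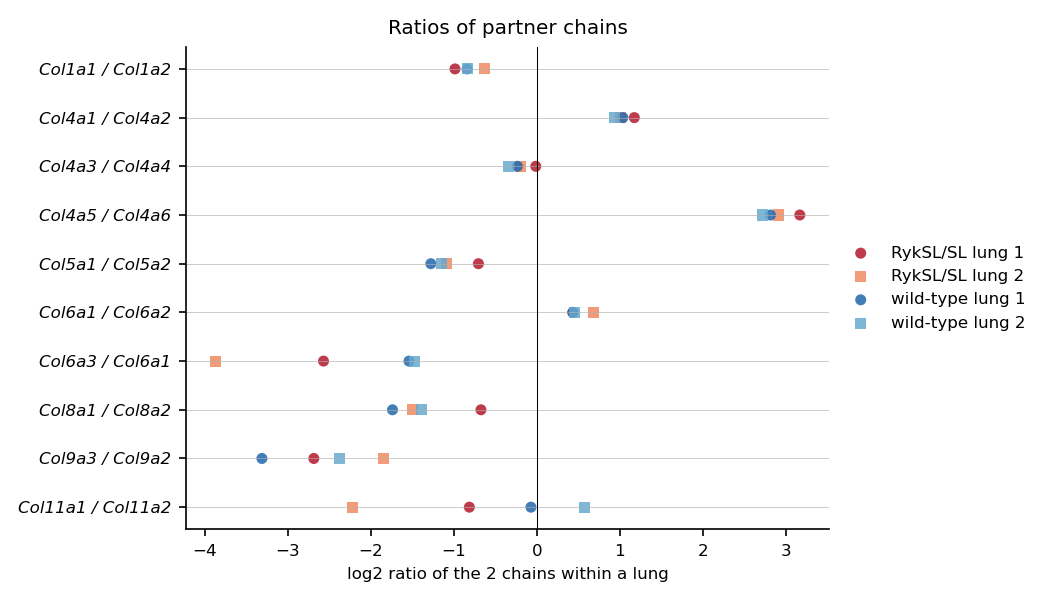
Log2 ratio of normalized counts of partner chains within each lung, 1 point per lung, for 10 pairs of chains. The mutant points of Col6a3 to Col6a1 lie at -2.57 and -3.87, left of the wild-type points at -1.54 and -1.47, while the Col4a1 to Col4a2 points of all 4 lungs lie between 0.93 and 1.18.

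Upstream of the start, the promoters of a few members that stood lower or higher in both mutant lungs are shown to give their sequence context (RefSeq starts, GRCm38.p6, the 100 bases before the start, 5′ to 3′ on the gene's strand, no annotated exon inside). Capitals mark GC box letters, GGGCGG or CCGCCC.
Col3a1, chr1:45311438-45311537, plus strand: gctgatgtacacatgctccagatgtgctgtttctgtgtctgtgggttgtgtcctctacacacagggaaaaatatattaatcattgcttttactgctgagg
Col27a1, chr4:63215312-63215411, plus strand: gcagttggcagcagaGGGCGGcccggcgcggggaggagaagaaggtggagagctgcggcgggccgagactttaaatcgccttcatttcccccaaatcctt
Col6a3, chr1:90843972-90844071, minus strand: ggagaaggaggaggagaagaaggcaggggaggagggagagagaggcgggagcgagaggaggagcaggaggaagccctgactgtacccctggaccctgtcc
Col11a2, chr17:34039038-34039137, plus strand: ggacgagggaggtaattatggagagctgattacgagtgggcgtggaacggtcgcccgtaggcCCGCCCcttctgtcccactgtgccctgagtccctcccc
Col7a1, chr9:108953486-108953585, plus strand: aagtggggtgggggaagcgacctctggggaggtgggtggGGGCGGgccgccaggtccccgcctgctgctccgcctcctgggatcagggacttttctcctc
GC box letters stood in the windows of Col27a1, Col11a2 and Col7a1, and none of the 5 windows held a CCAAT box (CCAAT or ATTGG) or a TATA box (TATAAA or TTTATA). In the 250 bases before the start, 21 of the 32 members in the promoter table held a GC box in any of their promoters. For a CCAAT box the count was 12, and for a TATA box 4. Of all 32544 promoters, counted singly, 33.0%, 33.8% and 12.3% did. Members with several promoters had more chances of a match, so the counts and shares are not on the same footing. A match in such a window is a description of its letters.

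Genes that make, process and bind collagen were followed in 8 lists with 86 genes measured. A further pair, Tll2 and Mmp13, stood under the mean of 10. Of the 86, 5 passed, 3 higher and 2 lower in the mutant, or 5.81% against 2.39% of all genes tested. Lox, the enzyme that crosslinks collagen and elastin, rose, with 14036 and 22126 normalized counts in the mutant lungs, with 5457 and 5349 in wild type, a log2 difference of 1.71 (standard error 0.24, adjusted p = 0.0310). It was the only one of 5 crosslinking genes to pass. Loxl1, of the same family, had 1442 and 1002 in the mutant lungs and 2181 in both wild-type lungs (-0.86, adjusted p = 0.0944).

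Of 7 propeptide cleavage genes, 1 was called higher and 1 lower in the mutant. Adamts14, a protease that removes the amino-terminal propeptide, rose, with 406 and 386 normalized counts in the mutant lungs, with 149 and 175 in wild type (1.29, adjusted p = 0.0277). Pcolce, which speeds removal of the carboxy-terminal propeptide, fell, with 616 and 577 in the mutant lungs, with 1095 and 1028 in wild type (-0.83, adjusted p = 0.0446). Among 10 genes of fibril-associated matrix, Lum, a proteoglycan that spaces fibrils, fell to 37 and 54 in the mutant lungs, against 187 and 143 in the wild-type lungs (-1.85, adjusted p = 0.0357). Among 8 genes of collagen breakdown, the neutrophil collagenase gene Mmp8 rose to 538 and 540 in the mutant lungs, against 168 and 204 in the wild-type lungs (1.54, adjusted p = 0.0180). Mmp2, a gelatinase, had 1760 and 2070 in the mutant lungs, with 3221 and 3223 in wild type and did not pass (adjusted p = 0.0632). None of the 5 calls held without the trend or without the filter on low values. Without that filter no gene of any kind was called. The 5 were also lost without mutant lung 2 or either wild-type lung, fits with 1 mouse in a genotype that gave no call for any gene. Such losses are not particular to these genes. The call of Lum also failed without mutant lung 1.

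**Figure D5:**
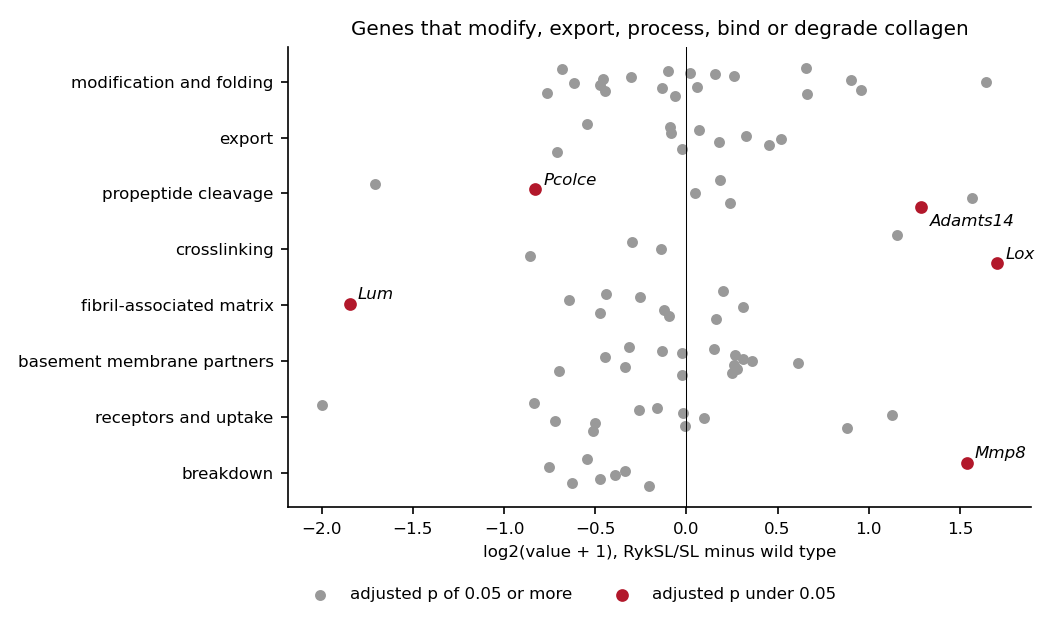
Log2(value + 1) difference, mutant minus wild type, of each measured gene in 8 lists of collagen processing, partner and receptor genes, with genes at an adjusted p under 0.05 in red and named. Lox, Adamts14 and Mmp8 lie right of 0 and Pcolce and Lum left of it.

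In the other 4 lists no gene passed. Of 19 genes for modification and folding, the prolyl hydroxylase subunit gene P4ha2 had 514 and 566 normalized counts in the mutant lungs, with 269 and 309 in wild type (0.90, adjusted p = 0.0534), and Fkbp14, a folding enzyme, had 808 and 1135 against 533 and 455 (0.96, adjusted p = 0.0799). Of 10 export genes, Ctage5 (0.46) and Creb3l1 (-0.71) had the smallest p, with adjusted p of 0.159 and 0.231. Of 15 genes for laminins and other partners of type IV collagen, the epithelial laminin chain Lama5 had 6962 and 9294 in the mutant lungs, with 5000 and 5531 in wild type (adjusted p = 0.163), and Lama1 had 42 and 70 against 95 and 83 (adjusted p = 0.276). Of 12 receptor and uptake genes, Lair1, an inhibitory collagen receptor of leukocytes, had 20 and 11 in the mutant lungs, with 60 and 65 in wild type (adjusted p = 0.0576). Cspg4, a pericyte proteoglycan that binds type VI collagen, had 509 and 445 in the mutant lungs, with 238 and 279 in wild type (0.88, adjusted p = 0.0639).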

How the data were processed

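RNA from 4 left lung lobes was made into poly(A) libraries with a stranded kit from 3 micrograms of total RNA, per the labels' protocols. Per the submitters' processing notes, the tools were FastQC, STAR 2.4.0a, featureCounts 1.5.1 (Subread) and DESeq2 1.14.1, and the genome mm10 (GRCm38). The sources used here do not give how strand and multiply aligned reads were handled. The authors deposited whole numbers named as normalized counts, treated here as a score. Their scaling is not stated, and no gene in mutant replicate 2 had a value of 3, 10, 17 or 24, as rounding of scaled counts leaves, so no count model was run. Values under about 10 rest on a few reads.

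Differences, mutant minus wild type on log2(value + 1), were tested with limma 3.58.1 (R 4.3.3, mean-variance trend, two-sided) across genes whose mean reached 10. The fit had 4.07 prior and 2 residual degrees of freedom. It was also run on simulated data that gave both genotypes the same spread. In the lungs, the SD over genes of the log2 difference was 0.60 between mutant lungs and 0.31 between wild-type lungs, which that check does not cover. Intervals are 95% intervals of that fit. P-values measure the spread between these mice only. Summaries and figures used Python 3.11.15 with scipy 1.17.1, pandas 2.3.3 and matplotlib 3.10.9. Exon lengths and exon sequences came from GENCODE M21, promoters from RefSeq (GRCm38.p6). Without the strand setting, opposite-strand exon overlaps of at least 100 bases leave reads of Col4a3, Col5a1, Col6a4 and Col9a3 less certain. Exons of Col3a1 overlap a gene on the same strand by 141 bases, which the strand setting would not resolve.

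Every member is named, with values per lung for the leading member and the largest difference of each class and for partner pairs. Of each pathway list, called genes are named, or else the pair with the smallest p, and of each marker list the most abundant and called ones. Loxl1, Mmp2 and further members were named after their values were seen. Members and lists were chosen with earlier results of these data known. Dcn, Lum, Tgfbi and Cspg4 stand in both a pathway and a marker list. Alternatives were other pseudocounts, filters and scalings, no trend, each lung left out, and the replicate number as a block.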

Additional observations from a re-analysis of the deposited data

How the results depend on the processing

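The counts of calls depended on single lungs and settings. The 440 genes called became 0 when every gene of the table was tested (with 4876 at an unadjusted p under 0.05), 72 without the trend and 766 with the replicate block, and ranged from 0 to 2385 with a lung left out. The collagen chain count of 0 became 1 with equal library totals, quantile normalization or the replicate block, and ranged from 0 to 10 with a lung left out. The pathway count of 5 became 0 with no filter or no trend and 10 with the replicate block, and ranged from 0 to 29. Deviations of same-numbered lungs had a correlation of -0.06 across genes. The labels do not state whether such lungs share more than a number, for example a litter, and the correlation cannot settle it. Of the class medians of log2 differences, the fibrillar one was -0.47 with a pseudocount of 10 and -0.57 with equal library totals, and ranged from -0.48 to -0.38 with a lung left out. The basement membrane median was -0.10 with equal totals and -0.13 with quantile normalization. The FACIT median was -0.41 when only genes of mean 50 or more were kept and -0.14 with quantile normalization, and ranged from -0.14 to 0.22 with a lung left out. The same ranges were -0.16 to 0.077 for beaded filament, -0.71 to -0.13 for transmembrane and -0.47 to 0.23 for the remaining chains. Signs turned with equal library totals for Col23a1 (-0.043), Col4a3 (-0.0041), Col6a2 (-0.063) and Col6a5 (-0.077), and with quantile normalization for Col23a1 (-0.066), Col4a3 (-0.035), Col6a2 (-0.0897) and Col5a3 (0.028). With a lung left out, the log2 differences that crossed 0 ranged from -0.89 to 0.17 for Col12a1, -0.25 to 0.22 for Col14a1, -1.502 to 0.23 for Col15a1, -1.13 to 0.23 for Col18a1, -0.064 to 0.13 for Col23a1, -0.43 to 0.046 for Col24a1 and -0.42 to 0.29 for Col25a1. Further such ranges were -0.65 to 0.12 for Col28a1, -0.023 to 0.82 for Col4a2, -0.34 to 0.021 for Col5a1, -0.16 to 0.05 for Col5a3, -0.0397 to 0.072 for Col6a2 and -0.17 to 0.42 for Col6a4. The others were -0.39 to 0.39 for Col6a5, -0.59 to 0.23 for Col6a6, -0.073 to 0.74 for Col8a1 and -0.14 to 0.36 for Col9a3. The causes of these shifts were not tested. With 2 mice per genotype, 1 of them apart in sex-linked genes, modest differences in single chains were not detectable, and values under about 10 rest on a few reads.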
